A study of Mus musculus with 18 samples.

Results

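The hematopoietic stem cell transcription factor core is a set of 10 genes, Gata2, Runx1, Tal1, Lmo2, Lyl1, Fli1, Erg, Spi1, Gfi1 and Gfi1b, chosen by symbol among the 24421 genes of the count table. All 10 were present, and all 10 were among the 12808 genes tested. Their RNA was measured in 18 libraries of sorted mouse bone marrow hematopoietic stem cells (HSCs), 3 libraries in each of 6 groups. Young mice of 2 to 3 months and aged mice of 23 to 25 months each gave 3 fractions, called bulk-HSCs, LT-HSCs and ST-HSCs.

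Every library came from Hoxb5-tri-mCherry mice on a C57BL/6J background, in which a red fluorescent reporter sits at the Hoxb5 locus, and no group carried a further allele or received a drug. Bulk-HSCs were sorted as lineage-, c-Kit+, Sca-1+, Flk2-, CD34-/low and CD150+ cells. LT-HSCs were the Hoxb5+ cells of that gate and ST-HSCs the Hoxb5- cells, so the fractions rest on 1 reporter gene. The sources do not say how many mice gave each library, and p-values therefore measure only the spread between these samples, which may be technical.

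These factors work as a regulatory circuit of the blood stem cell. Tal1 or Lyl1, both basic helix-loop-helix proteins, bind DNA next to Gata2 through the bridging protein Lmo2, while Runx1 and the ETS proteins Fli1 and Erg often occupy the same enhancers. Spi1 (PU.1) directs myeloid and lymphoid programs and opposes GATA factors, and the zinc-finger repressors Gfi1 and Gfi1b restrain proliferation and lineage choice.

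The sort left its trace in Hoxb5 RNA, given as CPM, a gene's count scaled to the library total by the trimmed mean of M-values (TMM). Hoxb5 was at 40.3, 8.77 and 8.20 CPM in the young LT-HSC libraries and 3.83, 2.40 and 0.0 CPM in the young ST-HSC libraries. In aged mice it was at 18.4, 24.6 and 26.0 CPM in LT-HSCs and 4.56, 1.68 and 0.397 CPM in ST-HSCs. No ST-HSC library reached the lowest LT-HSC library. All 10 HSC markers looked for averaged at least 1 CPM in every group, Hoxb5 in ST-HSCs included, so this bar does not separate the fractions.

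Libraries held 16495048 to 22973844 counts. Aged libraries detected 13526 to 14133 genes and young libraries 11548 to 13876. Among genes whose median count was 200 or more, 163 had no count in young LT-HSCs replicate 3 and 160 in young ST-HSCs replicate 3, against at most 6 in any aged library. The fits were repeated without these libraries.

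Sequences are shown here for the members whose results need them. Gfi1 and Gfi1b encode closely related proteins, as do Erg and Fli1, so reads from one could in principle be counted for the other. The longest stretch of coding sequence that each pair shares, computed from GENCODE transcripts on GRCm38.p6, was 27 bases for Gfi1 and Gfi1b, within the zinc fingers, and 22 bases for Erg and Fli1, within the ETS domain. Both are far shorter than the 127-base reads. The shared stretches are printed 5′ to 3′ on the coding strand.
Gfi1 and Gfi1b: catccacacaggtgagaagccccacaa
Erg and Fli1: ggaagagcaagcccaacatgaa

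The 250 bases upstream of an annotated start are shown for Gata2, the member with the strongest age call, and for Gfi1 and Gfi1b, the repressors with the widest range between libraries. Gata2 and Gfi1 each have another annotated start, whose window overlaps exons and is not shown. Coordinates are of GRCm38.p6, and the sequences come from the RefSeq promoter table of that build, in which 7 of the 10 members were matched. The windows of Gata2 and Gfi1b lie just outside the gene, and that of Gfi1, before its downstream start, lies in an intron of the longer transcript. Capitals mark a GATA motif, an ETS motif (AGGAAG or CGGAAG) or a GFI motif (AAATCA), searched on both strands together with an E-box (CAGCTG or CAGATG) and a RUNX motif (TGTGGT or TGCGGT). The GATA motif was either AGATAA or the form AGATAG, and likewise either TGATAA or the form TGATAG. The marked motifs do not overlap one another.
Gata2, chr6:88193641-88193890, + strand: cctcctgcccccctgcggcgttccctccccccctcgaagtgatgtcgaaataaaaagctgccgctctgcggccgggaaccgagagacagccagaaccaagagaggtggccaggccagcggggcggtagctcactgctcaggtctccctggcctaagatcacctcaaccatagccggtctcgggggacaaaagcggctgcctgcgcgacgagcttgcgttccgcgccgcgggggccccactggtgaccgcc
Gfi1, chr5:107724344-107724593, - strand: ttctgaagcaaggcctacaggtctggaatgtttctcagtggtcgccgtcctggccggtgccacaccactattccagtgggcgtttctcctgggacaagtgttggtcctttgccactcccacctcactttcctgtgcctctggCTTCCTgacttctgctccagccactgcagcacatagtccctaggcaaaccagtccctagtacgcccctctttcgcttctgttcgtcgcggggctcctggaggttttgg
Gfi1b, chr2:28621983-28622232, - strand: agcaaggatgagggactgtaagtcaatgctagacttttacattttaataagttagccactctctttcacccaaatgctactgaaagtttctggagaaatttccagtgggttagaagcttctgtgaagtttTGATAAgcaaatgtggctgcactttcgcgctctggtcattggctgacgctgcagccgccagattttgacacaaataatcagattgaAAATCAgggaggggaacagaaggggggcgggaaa

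The Gfi1b window held 1 GATA and 1 GFI motif, the Gfi1 window 1 ETS motif, and the Gata2 window none of those searched. Among 32851 mouse promoter windows of the same length, 26.5% held a GATA motif, 39.2% an ETS motif, 25.5% the E-box, 18.6% a RUNX motif and 12.4% a GFI motif. A match is a description of the letters and not evidence of binding.

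The core was transcribed in every library, with no count of 0 for any member. Compared per kilobase of exon, as mean CPM per kb over the 18 libraries, Lmo2 stood highest at 385 ± 31.0 (SD, n = 18), above the next member in all 18 libraries. Fli1 (91.0 ± 10.9) and Lyl1 (90.9 ± 14.3) followed and could not be ordered, Fli1 being the higher of the pair in 9 libraries. Gata2 was at 72.4 ± 9.69, below Lyl1 in 17 libraries.

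Erg (54.0 ± 4.87) and Tal1 (52.3 ± 6.61) overlapped, with Erg higher in 11 libraries. Below them came Gfi1b at 26.1 ± 9.09, Runx1 at 17.6 ± 4.86, Spi1 at 13.1 ± 3.23 and Gfi1 at 7.12 ± 3.33 CPM per kb, and each of the first 3 of these was above the next in 15 of 18 libraries. On this scale Lmo2 exceeded 99.6% of the 12297 tested genes with a length, and Gfi1 exceeded 49.7%. Lengths were the union of a gene's annotated exons, which for Runx1 came to 12.025 kb, the longest of the core.

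**Figure D1:**
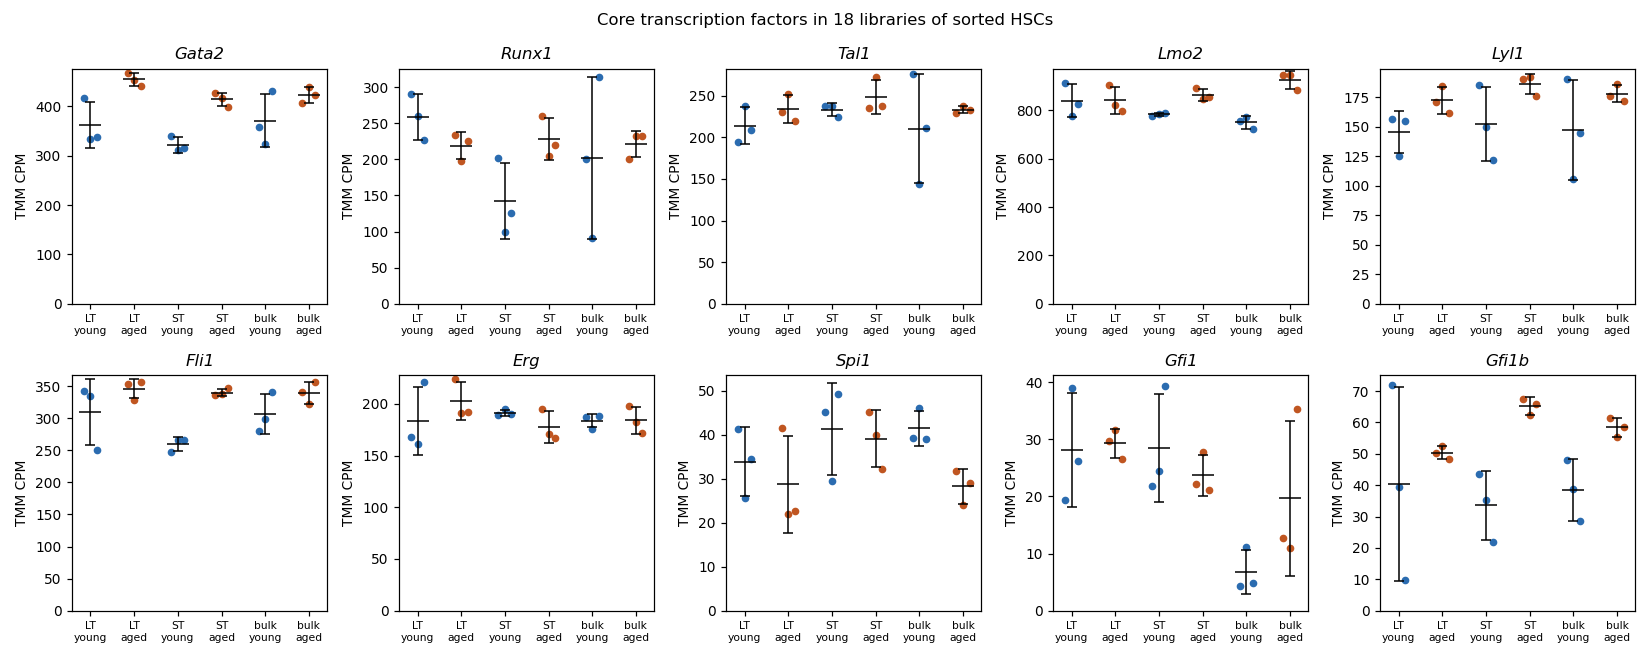
CPM (vertical axis, from 0) of each core factor in the 18 libraries, grouped by fraction and age, with points for libraries and black bars for the mean ± SD of 3 libraries. Gata2 stood at 399 to 468 CPM in the 9 aged libraries and 311 to 430.2 CPM in the 9 young ones, and Gfi1 was at or under 11.2 CPM in every young bulk-HSC library.

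The first question was how the core differed between young and aged stem cells. Averaged over the 3 fractions, Gata2 and Fli1 were higher in aged mice, by 1.22-fold and 1.17-fold, and the other 8 members did not pass the test (edgeR's quasi-likelihood test, Benjamini-Hochberg adjusted p under 0.05 over all genes). That was 2 of 10 members, beside 6.75% of all genes tested. In this comparison 9 of 10 members had a fold change above 0 on the log2 scale, with a median of 0.21, beside 54.7% of all genes and a median of 0.04. Because each library is a pool of cells, more RNA per cell and more cells that express a gene cannot be told apart.

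Gata2 (chromosome 6, 88193891 to 88207032, plus strand), the zinc-finger factor required for the emergence and survival of stem cells, was at 417, 333 and 339 CPM in young LT-HSCs and 468, 453 and 442 CPM in aged LT-HSCs. In ST-HSCs it was at 339.8, 311 and 315 CPM when young and 426, 416 and 399 CPM when aged. Both fractions separated by age without overlap, whereas bulk-HSCs overlapped, at 358, 324 and 430.2 CPM when young and 406, 439 and 422 CPM when aged.

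The averaged log2 difference for Gata2 was 0.29 (SE 0.063, edgeR adjusted p = 0.00817). All 9 aged libraries lay above the young median, and 7 of 9 young libraries lay below every aged one. By fraction the log2 differences were 0.36 in ST-HSCs, 0.32 in LT-HSCs and 0.19 in bulk-HSCs, none past the adjusted threshold (edgeR adjusted p = 0.154, 0.302 and 0.526). The call held in 26 of 27 alternative fits, including each of 18 that left out 1 library. With a covariate for how many genes a library detected, which itself differed between ages, the averaged log2 difference was 0.33 with an edgeR adjusted p of 0.160.

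Fli1 (chromosome 9, 32422204 to 32542861, minus strand), an ETS activator of stem cell, megakaryocyte and endothelial genes, was at 247, 267 and 266 CPM in young ST-HSCs and 336, 337 and 347 CPM in aged ST-HSCs. These groups did not overlap. In LT-HSCs the values were 343, 335 and 251 CPM when young and 353, 329 and 356 CPM when aged, and in bulk-HSCs 280.1, 298 and 341 CPM against 341, 322 and 357 CPM. Both of these pairs overlapped, the young libraries spreading downwards.

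The averaged log2 difference for Fli1 was 0.23 (SE 0.066, edgeR adjusted p = 0.0405). This call rested on a narrow margin, since leaving out any of 14 of the 18 libraries raised the edgeR adjusted p to between 0.0507 and 0.0867, and it held only without young LT-HSCs replicate 1 or 2, young ST-HSCs replicate 3 or young bulk-HSCs replicate 3. With the detected-gene covariate the averaged log2 difference of Fli1 was 0.15 (edgeR adjusted p = 0.691).

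**Figure D2:**
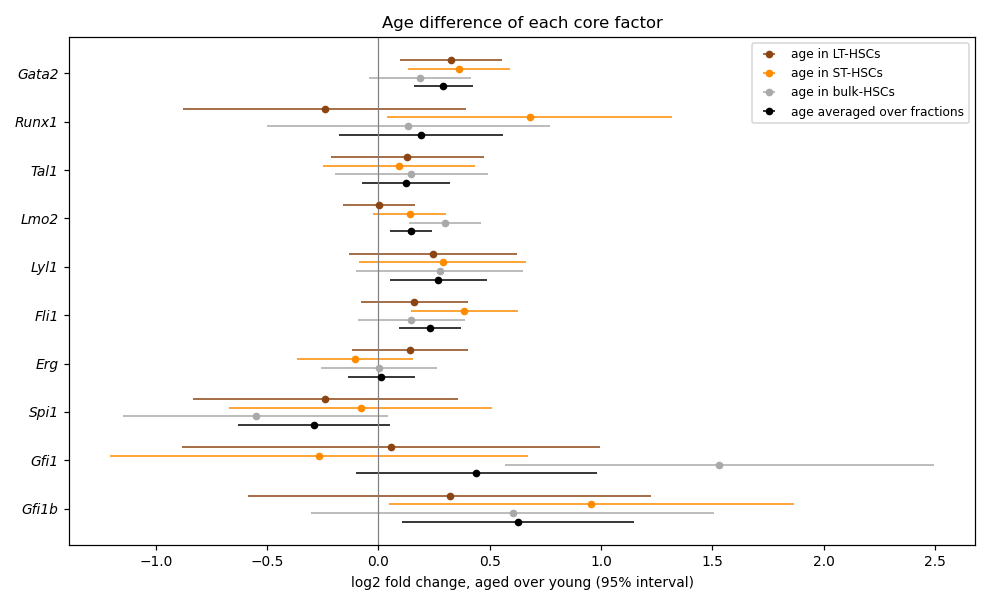
Log2 fold change of aged over young (horizontal axis) for each core factor in LT-HSCs, ST-HSCs, bulk-HSCs and averaged over the fractions, with points for estimates and lines for 95% intervals. The averaged intervals of Gata2 (0.16 to 0.42) and Fli1 (0.09 to 0.37) lie above 0, while that of Erg (-0.14 to 0.16) spans it.

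Among the other members of the GATA complex, Lmo2 (chromosome 2, 103957986 to 103981878, plus strand), the LIM-domain bridge, had the narrowest range of the core, its highest library being 1.31 times its lowest. In bulk-HSCs it was at 758, 774 and 722 CPM when young and 946, 945 and 883 CPM when aged. Those groups did not overlap, and the log2 difference was 0.30 (SE 0.078) with an edgeR adjusted p of 0.0550. In ST-HSCs Lmo2 was at 777, 785 and 788 CPM when young and 891, 846 and 855 CPM when aged, again without overlap. In LT-HSCs it was at 913, 778 and 828 CPM against 905, 822 and 797 CPM, and the groups overlapped.

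Averaged over fractions, the log2 difference of Lmo2 was 0.15 (SE 0.045) with an edgeR adjusted p of 0.0556, just outside the threshold. The other tools used called it, DESeq2 with an adjusted p of 0.0296 and limma-voom with quality weights with 0.0300. Without young LT-HSCs replicate 1 the averaged adjusted p for Lmo2 was 0.0277 by edgeR, and leaving out that library, young LT-HSCs replicate 2 or young ST-HSCs replicate 3 brought the edgeR adjusted p in bulk-HSCs to 0.0378, 0.0395 and 0.0443. The other 17 left-out libraries gave no averaged call, and the other 15 none in bulk-HSCs. With the detected-gene covariate the edgeR adjusted p for Lmo2 was 0.286 averaged and 0.139 in bulk-HSCs. Less that of bulk-HSCs, the log2 age difference of Lmo2 in LT-HSCs was -0.30 (95% interval -0.53 to -0.07), which did not pass the edgeR adjustment (adjusted p = 0.748).

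Tal1 (chromosome 4, 115056426 to 115071755, plus strand), the factor that specifies blood from mesoderm, ranged from 144 to 276 CPM in young and from 219 to 272 CPM in aged libraries. Its averaged log2 difference was 0.12 (95% interval -0.07 to 0.32). The extremes of the young range were both bulk-HSC libraries, replicate 2 at 144 CPM and replicate 1 at 276 CPM.

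Lyl1 (chromosome 8, 84701457 to 84704715, plus strand), a relative of Tal1 that can partly take its place in adult cells, was at 157, 125 and 155 CPM in young LT-HSCs and 171, 185 and 161 CPM in aged LT-HSCs. These did not overlap, but the other fractions did. All 9 aged Lyl1 libraries lay above the young median, and the averaged log2 difference of 0.27 (SE 0.10) had an edgeR adjusted p of 0.141. Without young bulk-HSCs replicate 1 it was 0.35 (edgeR adjusted p = 0.0314), while leaving out any of the other 17 libraries gave no call. By limma-voom with quality weights Lyl1 was called when averaged over fractions (adjusted p = 0.0393). With the detected-gene covariate the averaged log2 difference of Lyl1 was 0.29 (edgeR adjusted p = 0.621).

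Runx1 (chromosome 16, 92601466 to 92826149, minus strand), which launches definitive blood formation, varied from 91.0 to 314 CPM in young and from 198 to 260.2 CPM in aged libraries. Young ST-HSCs were at 202, 99.6 and 126 CPM and aged ST-HSCs at 260.2, 205 and 219 CPM, without overlap. Young bulk-HSCs were at 200.3, 91.0 and 314 CPM, a range that enclosed the aged bulk-HSCs at 201, 232 and 232 CPM. Its LT-HSC values were 289.9, 259.9 and 227 CPM when young and 234, 198 and 225 CPM when aged, which overlapped with the lower mean in aged cells.

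The log2 age difference of Runx1 was 0.68 (SE 0.30) in ST-HSCs and -0.24 (SE 0.30) in LT-HSCs. The difference between these effects was -0.92 (95% interval -1.82 to -0.02), with an unadjusted p of 0.0457 and an edgeR adjusted p of 0.9999. Averaged over fractions the age difference of Runx1 was 0.19 (95% interval -0.18 to 0.56).

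The ETS factor Erg (chromosome 16, 95359169 to 95586593, minus strand), needed for the self-renewal of stem cells, showed the smallest age difference of the core. It ranged from 162 to 221 CPM in young and from 167 to 224 CPM in aged libraries. The averaged log2 difference was 0.01 (95% interval -0.14 to 0.16), with a sign that turned under 9 of 27 alternatives.

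Spi1 (chromosome 2, 91082390 to 91115756, plus strand) was the 1 member with an averaged estimate below 0. In bulk-HSCs it was at 39.2, 46.0 and 39.0 CPM when young and 31.8, 23.9 and 29.1 CPM when aged, and these groups did not overlap. In LT-HSCs the values of 41.3, 25.7 and 34.5 CPM when young and 41.4, 21.9 and 22.7 CPM when aged overlapped, as did those of ST-HSCs, 45.1, 29.5 and 49.3 CPM against 45.1, 40.0 and 32.2 CPM. Its averaged log2 difference was -0.29 (95% interval -0.63 to 0.05, edgeR adjusted p = 0.357), and -0.0013 with the detected-gene covariate.

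Gfi1b (chromosome 2, 28609450 to 28621982, minus strand), the repressor that holds stem cells quiescent and serves erythroid and megakaryocyte development, had the largest averaged estimate of the core. Young ST-HSCs were at 43.7, 35.2 and 21.8 CPM and aged ST-HSCs at 67.6, 62.2 and 65.8 CPM, and young bulk-HSCs at 48.1, 38.7 and 28.5 CPM against 61.5, 55.2 and 58.4 CPM in aged bulk-HSCs. Both pairs separated. Young LT-HSCs spanned 71.8, 39.3 and 9.84 CPM around the aged LT-HSCs at 50.3, 52.5 and 48.2 CPM. The averaged log2 difference was 0.63 (SE 0.25), with an edgeR adjusted p of 0.155. Without young LT-HSCs replicate 1, at 71.8 CPM, the log2 difference of Gfi1b was 0.86 and the edgeR adjusted p 0.0255, while leaving out any of the other 17 libraries gave no call. By limma-voom with quality weights Gfi1b was called when averaged over fractions (adjusted p = 0.0333). With the detected-gene covariate the averaged log2 difference of Gfi1b was 0.05 (edgeR adjusted p = 0.987).

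Gfi1 (chromosome 5, 107716657 to 107726036, minus strand), a repressor that limits stem cell cycling and supports granulocyte and lymphoid development, had its largest age estimate in bulk-HSCs. Its counts in the young bulk-HSC libraries were 78, 246 and 104, or 4.36, 11.2 and 4.86 CPM. These lay below every young LT-HSC and ST-HSC library, although bulk-HSCs hold both fractions. Aged bulk-HSCs were at 12.8, 10.99 and 35.3 CPM, so the groups overlapped. The log2 age difference in bulk-HSCs was 1.53 (SE 0.46) with an edgeR adjusted p of 0.109. Without young bulk-HSCs replicate 2, at 11.2 CPM, the log2 difference was 2.09 and the edgeR adjusted p 0.0399, and without aged bulk-HSCs replicate 3, at 35.3 CPM, they were 0.80 and 0.571.

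The ages overlapped for Gfi1 in the other fractions too. It was at 19.4, 38.9 and 26.1 CPM in young LT-HSCs and 29.7, 31.5 and 26.6 CPM in aged LT-HSCs. Its values in ST-HSCs were 21.8, 24.4 and 39.3 CPM when young and 22.2, 27.8 and 21.1 CPM when aged. Relative to bulk-HSCs, the log2 age difference of Gfi1 in LT-HSCs was -1.47 (95% interval -2.81 to -0.14, edgeR adjusted p = 0.838). An antisense transcript, A430072P03Rik, shares 101 bases of Gfi1 exons, 3.169% of their length, and whether counting used strand is not given in the sources used here.

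Within single fractions no member passed the edgeR test for age. The shares of all genes called were 1.98% in bulk-HSCs, 0.851% in ST-HSCs and 0.445% in LT-HSCs. At an unadjusted edgeR p under 0.05, 1 member was counted in LT-HSCs (Gata2) and 4 in ST-HSCs (Fli1, Gata2, Runx1 and Gfi1b). Bulk-HSCs had 2, Lmo2 and Gfi1. Such a p was found, in that order of fractions, for 1129, 1238 and 1698 of all 12808 genes tested. In the same order of fractions, DESeq2 called 0, 2 and 2 members, and limma-voom with quality weights 0, 1 and 0. The DESeq2 calls were Gata2 and Fli1 in ST-HSCs and Lmo2 and Gfi1 in bulk-HSCs.

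Groups without overlap were counted as well. Every aged library exceeded every young one for 5 members in ST-HSCs, 2 in LT-HSCs and 2 in bulk-HSCs, and lay below for 1 member, Spi1, in bulk-HSCs. Over all tested genes, 17.8%, 16.1% and 22.7% separated in either direction in these fractions.

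Tests of whether the age effect itself differed between fractions called no member by edgeR, DESeq2 or limma-voom. For LT-HSCs against ST-HSCs the share of all genes called was 0%, and for LT-HSCs against bulk-HSCs it was 0.00781%. At an unadjusted edgeR p under 0.05 there was 1 member in the former, Runx1, and 2 in the latter, Lmo2 and Gfi1. Of all 12808 genes tested, 502 in the former and 746 in the latter had such a p.

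The second question was whether the Hoxb5 fractions differed in the core. No member was called by edgeR between LT-HSCs and ST-HSCs, in young mice (0.429% of all genes called), in aged mice (0.00781%) or averaged over ages (0.812%). DESeq2 and limma-voom also called 0 members in each of these. At an unadjusted edgeR p under 0.05 there were 2 members in young mice, Runx1 and Fli1, and 0 in the other comparisons. Of all 12808 genes tested, 1333 in young mice, 437 in aged mice and 1231 averaged over ages had such a p.

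Runx1 gave the widest gap between the young fractions. Each young LT-HSC library, at 227 to 289.9 CPM, lay above each young ST-HSC library, at 99.6 to 202 CPM, and the log2 difference was 0.86 (SE 0.30, edgeR adjusted p = 0.293). In aged mice the fractions overlapped, with a log2 difference of -0.06 (95% interval -0.70 to 0.58).

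Fli1 differed between young LT-HSCs and ST-HSCs by 0.25 on the log2 scale (95% interval 0.01 to 0.49, edgeR adjusted p = 0.449). Averaged over ages, 95% intervals of the log2 difference for LT-HSCs minus ST-HSCs were -0.08 to 0.15 for Lmo2, -0.12 to 0.25 for Erg and -0.01 to 0.32 for Gata2. They were wider at -0.05 to 0.85 for Runx1, -0.52 to 0.81 for Gfi1 and -0.69 to 0.58 for Gfi1b.

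Against bulk-HSCs, the comparison in young mice turned on Gfi1. All 3 young bulk-HSC libraries, at 4.36 to 11.2 CPM, lay below all 6 young LT-HSC and ST-HSC libraries, the lowest of which was at 19.4 CPM. LT-HSCs and ST-HSCs make up the bulk gate, so a mixture of them would lie between their levels. The reason for the lower level in bulk-HSCs was not tested, and it is not read as a difference between cell populations. The log2 difference between young LT-HSCs and bulk-HSCs was 2.05 (SE 0.47), the largest of any member in any comparison, with an unadjusted p of 0.000357 and an edgeR adjusted p of 0.0763. DESeq2 called Gfi1 there (adjusted p = 0.000397), and limma-voom called 0 members.

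That edgeR result moved with single libraries. Without young bulk-HSCs replicate 2 the Gfi1 log2 difference was 2.61 (edgeR adjusted p = 0.0280), and without aged bulk-HSCs replicate 3 it was 2.05 (edgeR adjusted p = 0.0452). By edgeR no member was called for LT-HSCs against bulk-HSCs in young mice (0.273% of all genes called) or in aged mice (0%). In aged mice 0 members had an unadjusted edgeR p under 0.05, beside 421 of all 12808 genes, and DESeq2 and limma-voom called 0 members.

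Ratios between members of one library do not depend on how libraries are scaled, so 4 pairs of factors with related or opposing roles were compared as log2 ratios of counts, not corrected for gene length, in 8 tests. For age, labels were exchanged within each fraction in an exact two-sided permutation test over 8000 arrangements, whose smallest possible p is 0.00025. For LT-HSCs against ST-HSCs they were exchanged within each age over 400 arrangements, with a smallest p of 0.005.

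Gata2 and Spi1, factors that antagonise each other in lineage choice, were compared first. The log2 ratio of Gata2 to Spi1 was 3.33, 3.70 and 3.29 in young LT-HSCs and 3.50, 4.37 and 4.28 in aged LT-HSCs. In ST-HSCs it was 2.91, 3.39 and 2.67 when young and 3.24, 3.38 and 3.63 when aged, and in bulk-HSCs 3.19, 2.82 and 3.46 against 3.67, 4.20 and 3.86. Only bulk-HSCs separated without overlap, but the mean was higher in aged cells in each of the 3 fractions.

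The averaged aged-minus-young difference in the log2 ratio of Gata2 to Spi1 was 0.60 (exact permutation p = 0.002, Benjamini-Hochberg p = 0.016 over the 8 tests). The pairs were chosen with earlier results of these data known, and these p-values do not account for that choice. The difference ranged from 0.54 to 0.69 over 20 alternatives, with Benjamini-Hochberg exact permutation p between 0.006 and 0.048. The ratio was not refitted with the detected-gene covariate, under which the averaged log2 age differences were 0.33 for Gata2 and -0.0013 for Spi1. Between LT-HSCs and ST-HSCs the log2 ratio of Gata2 to Spi1 differed by 0.54 (exact permutation p = 0.03, Benjamini-Hochberg p = 0.12). Without young ST-HSCs replicate 2 that difference was 0.64 and the Benjamini-Hochberg exact permutation p 0.04, the 1 of 14 alternatives that passed.

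None of the other 6 tests passed. The log2 ratio of Gfi1 to Gfi1b ranged from -3.45 in young bulk-HSCs replicate 1 to 1.41 in young LT-HSCs replicate 3, and its age difference of -0.35 had an exact permutation p of 0.474. The fractions differed in sign, at 0.82 in bulk-HSCs against -1.24 in ST-HSCs and -0.62 in LT-HSCs, a difference that was not tested. With single libraries left out, the averaged age difference of Gfi1 to Gfi1b ranged from -0.63 to -0.084. For Erg to Fli1 the age difference was -0.22 (exact permutation p = 0.0695), and for Tal1 to Lyl1 it was -0.15 (exact permutation p = 0.0738). Over the 18 libraries the log2 ratio of Tal1 to Lyl1 ranged from 0.31 to 0.93.

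**Figure D3:**
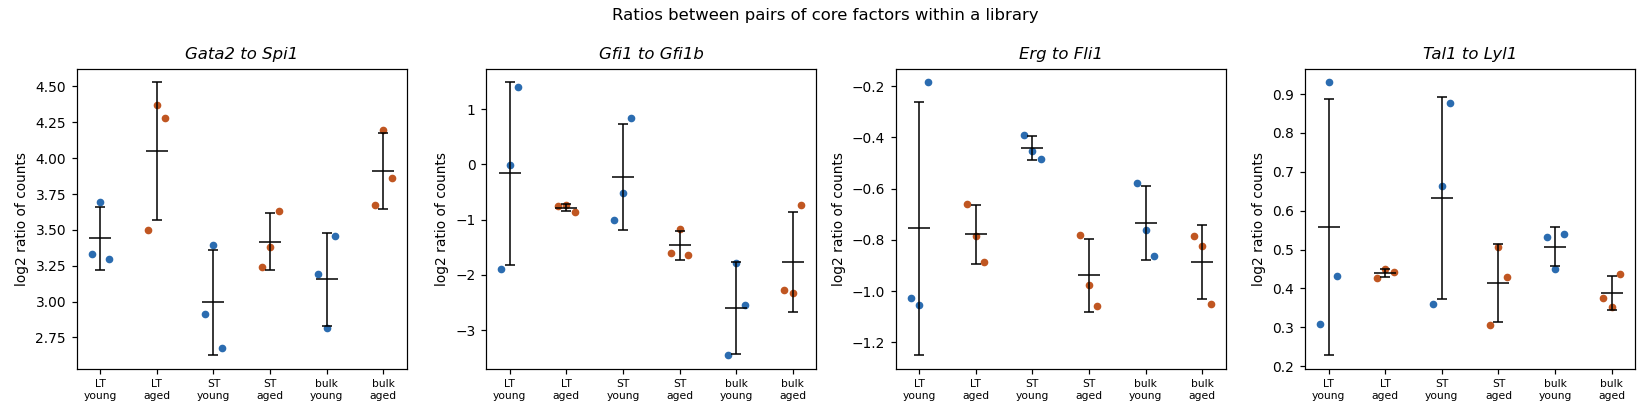
Log2 ratio of counts (vertical axis) for 4 pairs of core factors in each library, by fraction and age, with bars for the mean ± SD of 3 libraries. Gata2 to Spi1 averages 3.79 in aged and 3.20 in young libraries, and Gfi1 to Gfi1b spreads from -3.45 to 1.41.

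Most members, like most genes, spread less among aged than among young libraries. The standard deviation of log2(CPM + 0.5) among libraries of a group, pooled over fractions, was 0.91 in young and 0.07 in aged for Gfi1b, 0.61 and 0.14 for Runx1 and 0.32 and 0.08 for Lyl1. For Lmo2 (0.07 and 0.07) and Gfi1 (0.55 and 0.53) both ages were alike in spread, and Spi1 (0.31 and 0.35) was the exception. Larger spread in young libraries held for 9 of 10 members beside 84.8% of all tested genes, so the share of members is near that of all genes.

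**Figure D4:**
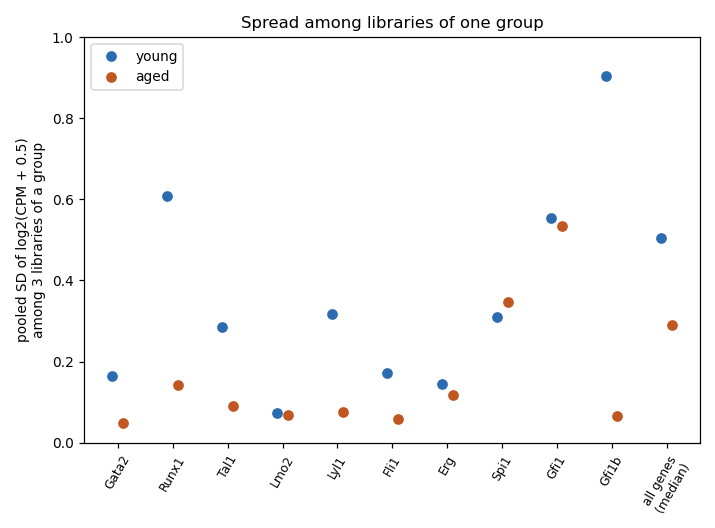
Standard deviation of log2(CPM + 0.5) among the 3 libraries of a group, pooled over 3 fractions (vertical axis), for each core factor and the median of all tested genes, in young and aged libraries. Gfi1b is at 0.91 in young and 0.07 in aged libraries, and the median of all genes at 0.50 and 0.29.

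Across the 18 libraries the members were not uniformly correlated. Of 45 pairs, 29 had a Pearson correlation of log2 CPM above 0, with a median r of 0.12, given as a description since libraries share ages and fractions. The highest was Gata2 with Fli1 (r = 0.79), followed by Tal1 with Lyl1 (r = 0.72). The lowest was Erg with Gfi1b (r = -0.46).

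Among 9712 genes averaging at least 10 CPM, the 3 most like Gata2 over the 18 libraries were Nrgn (r = 0.92), Irak3 (r = 0.89) and Tha1 (r = 0.87). Nr3c2, Caml and Gnpda2 were most like Runx1 (r = 0.83 to 0.86), and Mier1, Mapre3 and Crkl most like Tal1 (r = 0.86 to 0.88). For Lmo2 they were Gnl3l, Smtnl1 and Enpp5 (r = 0.81 to 0.82), for Lyl1 Susd6, Znrf1 and Hvcn1 (r = 0.82 to 0.85), and for Fli1 Gbp4, Mical1 and Sdpr (r = 0.85 to 0.87). Erg had the weakest company, Wdr5, Pdcd7 and Loxl3 (r = 0.72 to 0.76). Spi1 was followed by Dennd5a, Col4a2 and Irf2bp2 (r = 0.80 to 0.83), Gfi1 by Lztr1, Hivep3 and Foxd2os (r = 0.81 to 0.82) and Gfi1b by Abca4, Arap2 and Mrps2 (r = 0.91 to 0.92). No member was among the 3 genes most like another. The named genes are the highest of 9712 searched, over libraries that share ages and fractions, so these r values are only a description.

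The genes around the core were described by 4 lists. Of 19 tested partners and cofactors, 2 were higher and 1 lower in aged cells when averaged over fractions, with a median log2 difference of 0.07. Over all genes tested 6.75% were called and the median was 0.04. Id2, an inhibitor of helix-loop-helix dimers, was higher by 2.05 on the log2 scale (edgeR adjusted p = 0.0168), a call kept in all 18 fits that left out 1 library and lost with the detected-gene covariate (log2 difference 1.36, edgeR adjusted p = 0.708). Ssbp2, a partner of the bridging protein Ldb1, was higher by 0.41 (edgeR adjusted p = 0.0421), and Tcf3, the E protein that dimerises with Tal1 and Lyl1, decreased by 0.29 (edgeR adjusted p = 0.0439). The calls for Ssbp2 and Tcf3 were each lost on leaving out any of 14 of the 18 libraries, and with the detected-gene covariate. None of these 19 genes was called between LT-HSCs and ST-HSCs averaged over ages.

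Of 13 tested family paralogs, Ets1, an ETS factor of lymphoid and endothelial cells, was the 1 gene called with age, higher by 1.22 on the log2 scale (edgeR adjusted p = 0.00491), and its call held in 26 of 27 alternatives. It was lost with the detected-gene covariate (log2 difference 1.32, edgeR adjusted p = 0.217). The median log2 difference of the paralogs was 0.23, beside 0.04 over all genes, of which 6.75% were called. Runx3, a paralog of Runx1, was the 1 paralog called between the fractions. It was lower in LT-HSCs than in ST-HSCs by a log2 difference of -1.44 (edgeR adjusted p = 0.0308), a call lost on leaving out any of 8 libraries. The Runx3 call held in 19 of 28 alternatives.

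Of 20 other HSC transcription factors, 3 were higher and 3 lower in aged cells, beside 6.75% of all genes called in either direction, and their median log2 difference was 0.07, beside 0.04. The immediate early factor Egr1 was higher by 1.28 on the log2 scale (edgeR adjusted p = 0.00827) and Hhex by 0.43 (adjusted p = 0.0377). Ikzf2 decreased by 0.46 (edgeR adjusted p = 0.00241) and the longevity-associated factor Foxo3 by 0.29 (adjusted p = 0.0304). The calls for Egr1 and Ikzf2 held in 26 of 27 alternatives, that for Foxo3 in 18 and that for Hhex in 13. With the detected-gene covariate each of these calls was lost (edgeR adjusted p = 0.246 to 0.736).

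Between the fractions, Mecom, a stem cell regulator, was higher in LT-HSCs by 0.38 on the log2 scale (edgeR adjusted p = 0.0260). The proliferation-associated factors Myc and Myb were lower in LT-HSCs, with log2 differences of -0.80 (edgeR adjusted p = 0.0149) and -0.39 (adjusted p = 0.0220). Leaving out aged LT-HSCs replicate 1 or aged ST-HSCs replicate 3 ended the call for Myc, and 4 and 6 single libraries did so for Myb and Mecom. Of 28 alternatives of every kind, the call held in 25 for Myc, 23 for Myb and 21 for Mecom.

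Of 16 tested genes described as targets of the core, 2 were higher and 1 lower in aged cells, beside 6.75% called of all genes, and the median log2 difference was 0.25, beside 0.04. Procr, which encodes the HSC surface receptor EPCR, was higher by 0.40 on the log2 scale (edgeR adjusted p = 0.00663), and the cell cycle inhibitor Cdkn1a averaged 5.13 CPM in aged and 1.54 CPM in young libraries (edgeR adjusted p = 0.0321, lost on leaving out any of 10 libraries). Cd34 decreased by 1.06 on the log2 scale with age (edgeR adjusted p = 1.62e-05) and was lower in LT-HSCs than in ST-HSCs by a log2 difference of -0.91 (adjusted p = 0.00308). With the detected-gene covariate the age calls for Procr and Cdkn1a were lost (edgeR adjusted p = 0.283 and 0.579). That for Cd34 was kept (edgeR adjusted p = 0.0217). CD34 protein was itself part of the sorting gate. Kit, the stem cell factor receptor, was lower in LT-HSCs by a log2 difference of -0.26 (edgeR adjusted p = 0.0305, lost on leaving out any 1 of 7 libraries). The Kit call held in 18 of 28 alternatives.

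Several core factors are also used by other blood cells, so marker levels are given beside the age result. Megakaryocyte markers, of which 9 of 10 were tested and Vwf was called higher with age, summed to 646 to 1440.0 CPM in young and 930 to 1777 CPM in aged libraries, with Gp6 at 0 throughout. Erythroid markers summed to 2.58 to 198 CPM in young and 10.6 to 67.4 CPM in aged libraries, with Epor and Hba-a2 called higher with age. These were the 2 of 6 tested erythroid markers with an averaged estimate above 0, the median being -1.44 on the log2 scale, and Car1 was called lower with age in bulk-HSCs (edgeR adjusted p = 0.0262). Epor averaged 4.60 CPM in young and 5.49 CPM in aged libraries, with no count in young ST-HSCs. Hba-a2 averaged 0.071 CPM in young and 11.2 CPM in aged libraries. Myeloid granule markers summed to 46.0 to 130 CPM in young and 123 to 182 CPM in aged libraries, nearly all of it Prtn3, with Mpo and Ctsg at 0. Prtn3 was called higher with age (averaged log2 difference 0.93, edgeR adjusted p = 0.00196).

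Endothelial markers, led by Tie1, summed to 327 to 476 CPM in young and 287 to 460.4 CPM in aged libraries, with Cdh5 and Sox17 at 0 and Flt4 called higher with age. Flt4 was low, averaging 0.754 CPM in young and 3.24 CPM in aged libraries, with no count in young bulk-HSCs. Monocyte markers summed to 0.0 to 34.7 CPM in young and 5.42 to 46.1 CPM in aged libraries (Cx3cr1 at 0), and B cell markers to 10.6 to 29.2 CPM and 13.3 to 26.1 CPM, mostly Cd79b (Ms4a1, Pax5, Ebf1 and Igll1 at 0). T and NK cell markers summed to 2.95 to 37.5 CPM in young and 30.7 to 144 CPM in aged libraries, mainly Klrb1c, which was called higher with age, with Cd3e, Cd3g, Cd8a, Ncr1 and Bcl11b at 0. Markers of progenitors outside the gate, mostly Cd34, summed to 114 to 343 CPM in young and 63.7 to 149 CPM in aged libraries, with Il7r, Mpo and Dntt at 0 and with Cd34 and Flt3 called lower with age. The part of these markers in the age differences of Gata2 and Fli1 was not tested.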

How the data were processed

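RNA-seq counts of 18 libraries were used. The authors made the deposited counts from paired reads of 127 bases (KAPA RNA HyperPrep with RiboErase), aligned to mm10 with HISAT2, with transcripts assembled and their abundance estimated per library by StringTie 1.3.4d. How gene-level counts were derived from this, the annotation and the use of strand are not given in the sources used here. Counts were scaled by TMM, and 12808 of 24421 genes with a mean of at least 1 CPM were tested with edgeR 4.0.16 (quasi-likelihood, 6 group means, 12 residual degrees of freedom, Benjamini-Hochberg over all genes, called under 0.05). DESeq2 1.42.0 and limma 3.58.1 were alternatives, as were other scalings, filters and left-out libraries. Samples were grouped by label. Ratios had 0.5 counts added. Intervals are 95%. The scripts were tested on simulated data. A count of 3 corresponds to 0.131 to 0.182 CPM. The members, lists and pairs were chosen with earlier results of these data known. Text names all members, at most 5 called genes per list and comparison, and 3 most alike genes per member. Some genes of these lists are not reported here.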

Additional observations from a re-analysis of the deposited data

How the results depend on the processing

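Called members are counted per comparison. Age averaged over fractions gave 2 in the reported fit, 1 with library size only, with no filter beyond 1 count and with at least 10 counts in every library, 5 with limma-voom, 0 with the number of detected genes as covariate, and 1 to 4 when single libraries were left out. DESeq2 gave 3. Age in ST-HSCs gave 2 with DESeq2 and 1 with limma-voom. Age in bulk-HSCs gave 2 with DESeq2, 0 to 1 with single libraries left out, and 1 without both young LT-HSCs replicate 3 and young ST-HSCs replicate 3, a choice made after seeing the data. LT-HSCs against bulk-HSCs in young mice gave 1 with DESeq2 and 0 to 1 with single libraries left out.

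Among all genes, alternatives with all 18 libraries or without the 2 doubted ones called 153 (detected-gene covariate) to 1494 (DESeq2) for age averaged over fractions, against 864. The ranges were 82 to 741 for age in bulk-HSCs (253 reported), 9 to 290 in LT-HSCs (57) and 26 to 448 in ST-HSCs (109), where the lowest came from fitting only the groups compared or from the covariate and the highest from DESeq2. For LT-HSCs against ST-HSCs they were 5 to 387 in young (55), 1 to 66 in aged (1) and 76 to 394 averaged (104), and against bulk-HSCs 0 to 438 in young (35) and 0 to 32 in aged mice (0). For the age effect compared between fractions they were 0 to 83 against ST-HSCs (0) and 0 to 122 against bulk-HSCs (1). With single libraries left out, age averaged over fractions called 660 to 1051.

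The averaged log2 difference of Erg turned to -0.0018 with RLE size factors, -0.017 with library size only, -0.0066 with at least 10 counts and -0.0017 with DESeq2, and ranged from -0.014 to 0.064 with single libraries left out. Over single libraries left out, the difference between LT-HSCs and ST-HSCs ranged from -0.12 to 0.037 for the log2 ratio of Tal1 to Lyl1, from -0.018 to 0.81 for Gfi1 to Gfi1b and from 0.46 to 0.68 for Gata2 to Spi1.

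Same-numbered libraries of different fractions correlated at -0.03 to 0.16 in their deviations from the group means, above 0.1 in 2 of 18 pairs. Such values cannot decide whether same-numbered libraries came from the same mice, which the sources do not say. With the replicate block, age averaged over fractions also called 2 members, Gata2 (log2 difference 0.29, edgeR adjusted p = 0.00990) and Gfi1b (0.74, adjusted p = 0.0211), and Fli1 had an adjusted p of 0.0611.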
